A study of Mus musculus with 12 samples.

Results

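The genes *Nppa*, *Nppb*, *Bmp10*, *Myl4*, *Myl7*, *Sln*, *Myh7*, *Tnni1* and *Acta1* mark atrial or fetal heart muscle cells. They were read from the 48526 genes counted in every library by matching their symbols to Ensembl identifiers, and all 9 were found, each under 1 identifier. In the adult mouse heart, atrial myocytes build their sarcomeres with the myosin light chains of *Myl4* and *Myl7* and restrain the calcium pump SERCA with sarcolipin, the product of *Sln*, whereas ventricular myocytes use *Myl3*, *Myl2* and phospholamban. The fetal ventricle makes natriuretic peptides, β-myosin heavy chain, slow skeletal troponin I and skeletal α-actin, most of which give way to adult isoforms after birth and can return when the muscle is under load. Natriuretic peptide A is also known to persist in the ventricular conduction system, the fast-conducting network that ends in Purkinje cells (PCs).

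The samples were PCs and working ventricular myocytes (VMs) of adult *Ncam-1* WT and *Ncam-1* KO mice, the latter homozygous for the *Ncam-1*-/- allele, which removes the neural cell adhesion molecule from all cells. Every animal carried the *Cntn2*-EGFP bacterial artificial chromosome, in which the promoter of *Cntn2* drives green fluorescence in PCs. The reporter line was kept on CD1 and the mutant line on C57BL/6, and the 2 lines were crossed for sorting. Hearts were perfused, digested and stained with 50 nM TMRM, a mitochondrial dye that marks myocytes, and dye-positive ventricular cells were sorted into PCs with green fluorescence and VMs without it, giving 3 libraries of each cell type in each genotype. Neither the labels nor the study's methods say how many animals made up a library or whether PC and VM libraries of the same number came from the same heart, so p-values measure only the spread between these libraries.

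Between 1532393 and 6761356 counts per library fell outside the mitochondrial genome, which held 79.0% to 91.3% of the counts on genes. Levels are normalized counts, that is, counts divided by the library's effective size and set on the scale of the average library, and a value of 3 counts or fewer was treated as the floor of detection. In the library WT PC 2, the unaligned share of read pairs was 63.9%, while that of the others ran from 18.8% to 24.7%, and it held the fewest detected genes (11847), so the WT PC values that it moves most are also given without it. *Ncam1*, the deleted gene, measured 36.2, 66.3 and 67.0 in WT PCs and stayed at 1.26 or less in KO PCs. *Cntn2*, on which the sort was based, ran from 237 to 533 in WT PCs and from 2.22 to 8.99 in all VMs. Among the KO PC libraries *Cntn2* was 38.67, 49.2 and 452, so KO PC 3 stood apart from the other 2. Of all libraries, WT PC 2 had the highest mitochondrial share (91.3%) and KO PC 3 the lowest (79.0%). Their TMM factors, which scale the library size, were the lowest (0.632) and the highest (1.59). The ventricular light chain *Myl2* lay between 14162 and 34761 normalized counts in every library, far above *Myl7*.

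*Nppa* encodes the precursor of atrial natriuretic peptide and lies on chromosome 4 at 148000722-148002079 (GRCm38, plus strand). It was close to the floor in this material. Its raw counts were 41, 0 and 33 in WT PCs, 2, 2 and 6 in KO PCs, 6, 2 and 0 in WT VMs and 7, 0 and 0 in KO VMs. The normalized counts in WT PCs were 17.9, 0 and 19.1, and no library of the other groups exceeded 9.90. WT PC 1 and WT PC 3 were thus above all other libraries, but WT PC 2 was at 0, which at its depth allows a normalized count of up to 5.85, and the groups overlapped. The mean was 12.3 ± 10.7 in WT PCs, 3.35 ± 0.76 in KO PCs, 2.503 ± 2.86 in WT VMs and 3.30 ± 5.72 in KO VMs (SD, n = 3), and no neighbours in this order were apart by more than their spread. The WT PC mean was 18.5 without WT PC 2. These values have a limit of annotation: the antisense gene *Gm13054* covers 532 bases, or 61.5%, of the *Nppa* exons. The strand setting of the counting is not given in the sources used here. It is therefore not known whether read pairs in the overlap were counted for *Nppa* or left out as ambiguous. If they were left out, the *Nppa* counts are too low. *Gm13054* itself had 7 counts at most in any library.

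*Nppb*, the gene for B-type natriuretic peptide, ends 13.5 kb upstream of *Nppa* at chromosome 4, 147985788-147987205 (plus strand). It was abundant in every group, unlike its neighbour. The normalized counts were 538, 74.1 and 261 in WT PCs, 230, 294 and 301 in KO PCs, 520, 255 and 286 in WT VMs and 232, 303 and 448 in KO VMs. The highest values were in the WT libraries numbered 1 of both cell types, the lowest was in WT PC 2, and all 4 groups overlapped. The group means lay between 275 ± 38.9 in KO PCs and 354 ± 145 in WT VMs (SD, n = 3), and the mean of WT PCs, 291, was 399 without WT PC 2.

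*Bmp10* encodes a growth factor of the BMP family that in adults is made mainly in the right atrium, and lies on chromosome 6 at 87428994-87437677 (plus strand). It was seen in 2 libraries. The raw counts were 141, 0 and 1 in WT PCs, 53, 0 and 0 in WT VMs, 0 in all 3 KO PC libraries and 0, 1 and 0 in KO VMs. The means of 20.7 in WT PCs and 16.6 in WT VMs fell to 0.289 and 0 without the libraries numbered 1. As normalized counts, WT PC 1 held 61.5 and WT VM 1 held 49.7, and the other 10 libraries were at 1.28 or less. The WT PC and WT VM libraries numbered 1 therefore had similar amounts, while the libraries within a WT group differed by far more than the means of PCs and VMs. This was not general. Among members whose highest libraries were above the floor, the highest PC and VM libraries shared a number for 4 of 8 in WT. In KO they did so for 2 of 7. The promoters of *Nppa* and *Bmp10* are shown with that of *Myl7* because these 3 atrial genes followed different patterns over the libraries, and that of *Acta1* because it shares a motif with *Myl7*. Each is the 250 bases before the RefSeq start in GRCm38.p6, at chr4:148000472-148000721 (plus strand), chr6:87428744-87428993 (plus strand), chr11:5898783-5899032 (minus strand) and chr8:123894776-123895025 (minus strand). Capitals mark GATAA, the core of sites for GATA factors, AAGTG, a core of sites for NKX2-5, and the CArG box, the site of serum response factor, each on either strand.
Nppa: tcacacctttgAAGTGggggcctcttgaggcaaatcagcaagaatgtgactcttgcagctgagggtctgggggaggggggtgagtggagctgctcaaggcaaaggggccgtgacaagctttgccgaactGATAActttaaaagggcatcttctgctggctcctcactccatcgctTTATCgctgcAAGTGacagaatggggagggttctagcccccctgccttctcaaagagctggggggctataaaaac
Bmp10: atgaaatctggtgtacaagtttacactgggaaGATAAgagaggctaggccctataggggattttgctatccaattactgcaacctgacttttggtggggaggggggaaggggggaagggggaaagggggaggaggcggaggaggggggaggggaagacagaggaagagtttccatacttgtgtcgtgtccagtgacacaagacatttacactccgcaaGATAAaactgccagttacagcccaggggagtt
Myl7: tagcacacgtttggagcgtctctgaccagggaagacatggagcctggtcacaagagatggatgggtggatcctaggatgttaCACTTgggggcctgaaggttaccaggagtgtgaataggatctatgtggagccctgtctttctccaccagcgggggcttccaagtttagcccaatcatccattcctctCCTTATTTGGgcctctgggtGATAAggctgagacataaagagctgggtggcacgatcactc
Acta1: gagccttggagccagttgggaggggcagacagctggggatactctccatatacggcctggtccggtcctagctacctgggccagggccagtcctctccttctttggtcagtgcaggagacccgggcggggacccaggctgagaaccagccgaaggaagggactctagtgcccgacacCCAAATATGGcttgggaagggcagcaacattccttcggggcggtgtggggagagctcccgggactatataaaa
Over 32851 RefSeq promoters of this length, 22.6% hold GATAA, 40.7% hold AAGTG and 1.47% hold a CArG box. The *Nppa* window held 2 matches each to GATAA and AAGTG, *Bmp10* 2 to GATAA, *Myl7* 1 to each of the 3 motifs and *Acta1* 1 CArG box, and no matches overlapped. The matches are a description of these letters only.

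*Myl7*, the atrial regulatory light chain, lies on chromosome 11 at 5896637-5898782 (minus strand). Its normalized counts were 179, 497 and 102 in WT PCs, 33.4, 77.0 and 282 in KO PCs, 120, 27.3 and 52.5 in WT VMs and 112, 20.5 and 9.26 in KO VMs. WT PC 2 and KO PC 3 were the highest libraries, WT VM 1 and KO VM 1 were above the other VMs, and PCs and VMs overlapped in both genotypes. The mean fell in the order WT PC (260 ± 209), KO PC (131 ± 133), WT VM (66.6 ± 48.0) and KO VM (47.2 ± 56.2; SD, n = 3), and no neighbours in it differed beyond their spread. The WT PC mean was 141 ± 54.4 without WT PC 2 (SD, n = 2).

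*Myl4* encodes the atrial essential light chain, which fetal ventricles also make, and lies on chromosome 11 at 104550663-104595753 (plus strand). The normalized counts were 135, 421 and 101 in WT PCs, 40.4, 120 and 222 in KO PCs, 132, 33.9 and 38.5 in WT VMs and 76.4, 25.7 and 17.4 in KO VMs. The same libraries were highest as for *Myl7*, and the WT PC mean of 219 was 118 without WT PC 2. The raw counts of *Myl4* and *Myl7* stayed in a ratio between 0.684 and 1.88 in all 12 libraries, while the *Myl7* level itself ranged from 9.26 to 497.

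*Sln*, on chromosome 9 at 53850164-53854560 (plus strand), lies 4.05 Mb from *Ncam1*, and whether the mutant allele's flanking DNA bears on it was not tested. Its normalized counts were 38.4, 76.1 and 15.0 in WT PCs, 1.76, 13.9 and 46.1 in KO PCs, 23.4, 6.59 and 13.3 in WT VMs and 45.3, 11.6 and 6.95 in KO VMs. WT PC 2, KO PC 3 and KO VM 1 were the highest, and KO PC 1 had a single count. The WT PC mean of 43.2 was 26.7 without WT PC 2. The ratio of *Sln* to *Myl7* counts ran from 0.0526 to 0.750, a wider range than that of *Myl4*.

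**Figure D1:**
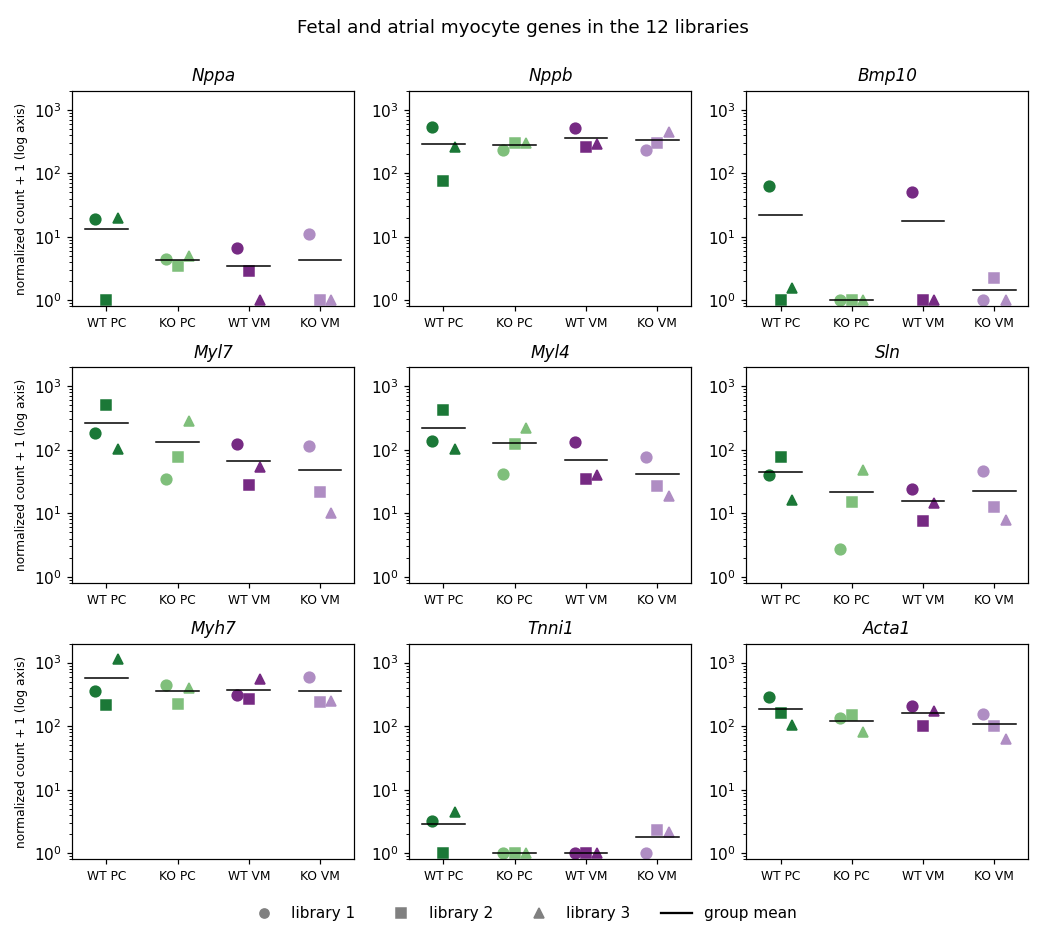
Normalized counts plus 1 (log axis) of the 9 genes in each library, in 4 groups of 3 libraries; the marker shape gives the library number and the bar the group mean. *Bmp10* stands out in WT PC 1 (61.5) and WT VM 1 (49.7), *Tnni1* stays near the floor, and the groups overlap for every gene.

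The atrial genes were set side by side in each library to show how far they moved together. The largest *Myl7* value, in WT PC 2, came with 0 counts of *Nppa* and 0 counts of *Bmp10*. Of all libraries, WT PC 2 was also highest for the adult ventricular genes *Myl2* (34761) and *Myl3* (28164) and for *Tnni3* (29904). It was lowest for the myocyte genes *Myh6* (46832) and *Actc1* (17676), and at neither end for *Pln*. The second largest *Myl7* value, in KO PC 3, came with 6 counts of *Nppa* and 0 of *Bmp10*. The largest *Bmp10* value, in WT PC 1, came with a *Myl7* level of 179, and WT VM 1, the other library with *Bmp10*, had the highest *Myl7* among VMs (120). Among KO VMs the library with the highest *Myl7* (KO VM 1, 112) was also highest for *Sln* (45.3) and *Nppa* (9.90), with no count of *Bmp10*. *Cntn2* was high in the same 2 libraries as *Myl7* (451 in WT PC 2 and 452 in KO PC 3), but it was highest in WT PC 3 (533), where *Myl7* was 102.

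Other markers of atrial myocytes were read beside these genes. The 9 markers in the list (5 of them among the genes described here, with *Mybphl*, *Stard10*, *Dkk3* and *Nr2f2*) had summed normalized counts from 432 to 1254 in WT PCs, from 111 to 695 in KO PCs, from 90.4 to 416 in WT VMs and from 52.1 to 281 in KO VMs, and the highest WT PC sum was 578 without WT PC 2. No marker was at the floor in all 12 libraries, but *Bmp10* and *Mybphl* had 0 counts in several. *Mybphl*, an atrial and conduction system myosin binding protein gene, had 7.85, 31.2 and 1.73 in WT PCs, 0, 8.84 and 17.4 in KO PCs and 6.56 at most in VMs. *Stard10* averaged 159 ± 64.6 in WT PCs, 43.0 ± 32.5 in KO PCs, 14.3 ± 3.89 in WT VMs and 12.9 ± 2.57 in KO VMs. *Nr2f2* averaged 12.7 ± 11.2, 9.32 ± 7.15, 6.7 ± 2.09 and 7.02 ± 5.84 in the same order. *Dkk3* averaged 14.9 ± 11.5, 20.9 ± 20.1, 22.0 ± 27.3 and 11.4 ± 4.31 (SD, n = 3). The *Dkk3* mean was thus lower in PCs than in VMs in WT, but not in KO. The share of carried-over atrial RNA in the *Myl4*, *Myl7* and *Sln* levels was not tested.

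*Myh7* encodes β-myosin heavy chain, the slow isoform of the fetal ventricle, and lies on chromosome 14 at 54970684-54994626 (minus strand), 3.8 kb from *Myh6*, the adult α isoform. The normalized counts were 351, 211 and 1157 in WT PCs, 450, 226 and 402 in KO PCs, 308, 271 and 542 in WT VMs and 588, 238 and 248.9 in KO VMs. WT PC 3 stood out, the libraries numbered 3 were highest in both WT cell types and those numbered 1 in both KO cell types, and all groups overlapped. The mean was 573 ± 511 in WT PCs and between 358 and 374 in the other groups. Part of the *Myh7* signal is uncertain, since 15.6% of the 50-base words of its transcripts also occur in another gene, nearly all in *Myh6*, which was far more abundant (46832 to 67155 normalized counts). The longest identical coding run is 245 bases, at coding positions 4240 to 4484 of *Myh7*, in 2 exons at chr14:54975234-54975347 and chr14:54974947-54975077 (GENCODE transcripts, GRCm38, minus strand). It is shown, with no part singled out, since a read inside it matches both genes.
Myh7 and Myh6: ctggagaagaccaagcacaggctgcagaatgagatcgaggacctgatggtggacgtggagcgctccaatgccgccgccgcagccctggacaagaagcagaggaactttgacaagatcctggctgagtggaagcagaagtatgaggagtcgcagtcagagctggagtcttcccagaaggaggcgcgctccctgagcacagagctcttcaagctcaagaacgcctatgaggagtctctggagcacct
The antisense transcript *Mhrt* and 2 other antisense genes cover 13.3% of the *Myh7* exons, and *Mhrt* had between 17 and 66 counts in every library. *Mhrt* covers 5.62%, and the others were either not among the counted genes or at 0 counts.

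*Tnni1*, slow skeletal troponin I of the fetal heart, on chromosome 1 at 135779434-135810989 (plus strand), was at or near the floor throughout. It had 5, 0 and 6 counts in WT PCs, 0 in all KO PC and WT VM libraries and 0, 1 and 1 in KO VMs, and it was too low to be tested in any comparison. *Tnni3*, the adult cardiac troponin I, had between 11733 and 29904 normalized counts.

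*Acta1*, skeletal α-actin, which the fetal heart makes beside cardiac actin, lies on chromosome 8 at 123891769-123894751 (minus strand). Its normalized counts were 285, 160 and 105 in WT PCs, 132, 146 and 79.5 in KO PCs, 204, 101 and 170 in WT VMs and 157, 98.9 and 62.5 in KO VMs. The libraries numbered 1 were highest in both WT cell types, and the groups overlapped. The mean was 183 ± 92.0 in WT PCs, 158 ± 52.8 in WT VMs, 119 ± 35.2 in KO PCs and 106 ± 47.7 in KO VMs (SD, n = 3). Genes of fast skeletal muscle were nearly absent: 8 of 13 skeletal muscle genes had 3 counts or fewer in all 12 libraries, and of the 3 tested between WT PCs and WT VMs *Pvalb* and *Tnnt1* were higher in PCs at an unadjusted p below 0.05, a rule that called 5.14% of all genes tested as higher. *Pvalb* averaged 0 in WT VMs, so it entered the test only through WT PCs and its call is not counted as a result. Without WT PC 2, *Tnnt1* was the only gene of the list tested.

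Compared per kilobase of annotated exon, the order of the 9 levels differed little between groups. *Nppb* led in KO PCs (352 ± 49.8 normalized counts per kilobase), WT VMs (453 ± 185) and KO VMs (420 ± 141), with *Myl7* next at 222 ± 225, 113 ± 81.3 and 80.0 ± 95.2, which in KO PCs was within the spread. In WT PCs *Myl7* (440 ± 355) and *Nppb* (372 ± 299) also lay within each other's spread, and without WT PC 2 *Nppb* was the higher there too (511 against 239). *Acta1* was next by its mean in every group (69.1 to 119), but it was above *Myl7* in 2 of 3 WT VM and 2 of 3 KO VM libraries. *Myh7* followed (41.6 to 66.5). *Nppa*, *Bmp10* and *Tnni1* were the lowest 3 in every group, with the limit of annotation given above for *Nppa*. *Myl4* is understated on this scale, since its annotated exons span 4637 bases but its coding sequence 579.

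Set against their adult ventricular partners, the fetal and atrial isoforms made up a small part. Per exon length, *Myl7* held 3.11% ± 1.43 of the sum with *Myl2* in WT PCs, 2.26% ± 2.25 in KO PCs, 1.20% ± 0.80 in WT VMs and 0.758% ± 0.787 in KO VMs (SD, n = 3). *Myl4* held 0.385% ± 0.241 of the sum with *Myl3* in WT PCs and 0.142% ± 0.131 in WT VMs. *Myh7* held 0.831% ± 0.724 of the sum with *Myh6* in WT PCs and between 0.451% and 0.563% in the other groups. *Acta1* held between 0.348% and 0.677% of the sum with *Actc1*, the cardiac actin, on average per group. *Sln* held 0.190% ± 0.123 of the sum with *Pln* in WT PCs and 0.0713% ± 0.0506 in WT VMs. By annotation 64.7% of the *Pln* exon bases overlap other genes, but 59.6% lie under a gene that was not among those counted. The overlap with a counted gene is 5.11%. The WT PC shares without WT PC 2 were 2.41% for *Myl7*, 0.250% for *Myl4*, 1.07% for *Myh7*, 0.543% for *Acta1* and 0.126% for *Sln*. *Tnni1* did not exceed 0.0111% of the sum with *Tnni3* in any library. All these shares depend on annotated exon length, so they compare groups but not pairs. *Myl7* has 590 exon bases and *Myl2* 1950, but their coding sequences have 525 and 528. *Myl4* has 4637 exon bases and *Myl3* 2044, but their coding sequences have 579 and 612.

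On the log2 scale, the ratio of *Myl7* to *Myl2* differed between PCs and VMs by 1.52 in WT and by 1.63 in KO. For *Myl4* to *Myl3* these differences were 1.62 and 1.73, and for *Sln* to *Pln* they were 1.33 and -0.13. *Myh7* to *Myh6* differed by 0.30 and 0.35 and *Acta1* to *Actc1* by 0.34 and 0.18. The WT differences without WT PC 2 were 1.18 for *Myl7*, 1.14 for *Myl4*, 0.84 for *Sln*, 0.75 for *Myh7* and 0.06 for *Acta1*. None passed: the two-sided exact permutation test over the 20 relabellings of 3 against 3 libraries cannot give a p below 0.1, and over the 24 tests the lowest Benjamini-Hochberg adjusted p was 0.63. The only ratio whose groups did not overlap was *Tnni1* to *Tnni3* between KO VMs and WT VMs, and it rests on 0 or 1 count of *Tnni1* per library.

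**Figure D2:**
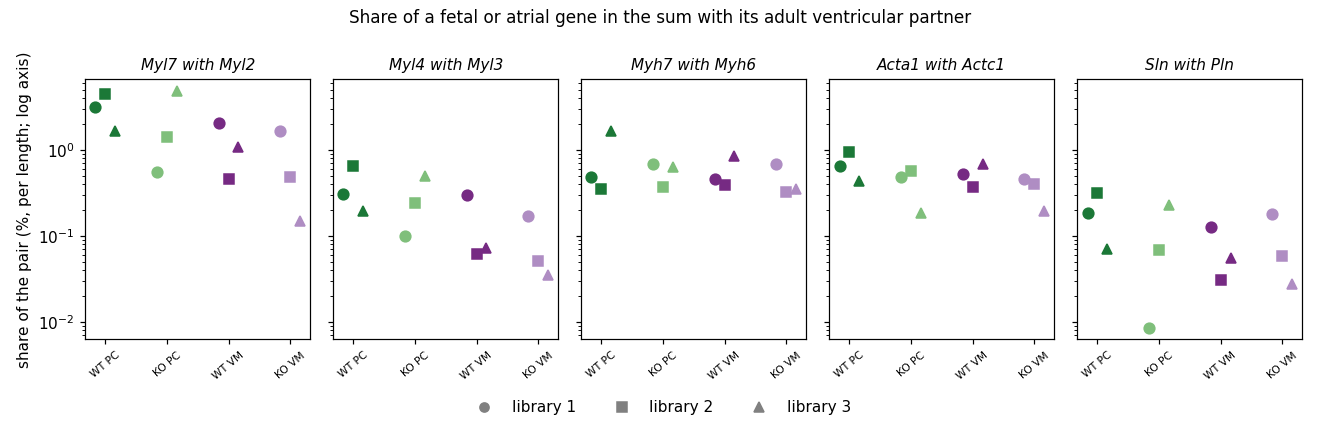
Share (%, log axis, counts per exon length) of a fetal or atrial gene in the sum with its adult ventricular partner, in each library; marker shape gives the library number. *Myl7* reaches 4.52% in WT PC 2 and 4.81% in KO PC 3. *Myl4* and *Sln* stay under 0.66% and 0.32%, but annotated exon lengths differ between partners, so shares of different pairs are not comparable.

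Whether PCs differ from VMs was tested across all genes with edgeR's quasi-likelihood test. In WT, *Myl7* and *Myl4* were higher in PCs at an unadjusted p below 0.05, the study's threshold, and no member passed the adjustment. *Myl7* was higher by 1.90 ± 0.65 on the log2 scale (SE, adjusted p = 0.671 by edgeR with Benjamini-Hochberg adjustment) and *Myl4* by 1.62 ± 0.66 (adjusted p = 0.750). That is 2 of the 8 members tested, where 6.36% of the 11822 genes tested were called by this rule, 5.14% in this direction, and 0.11% passed the adjustment. The other log2 differences were 2.38 ± 1.31 for *Nppa*, 1.49 ± 0.70 for *Sln*, 0.60 ± 0.57 for *Myh7*, 0.41 ± 1.80 for *Bmp10*, 0.18 ± 0.41 for *Acta1* and -0.28 ± 0.58 for *Nppb*, none past the threshold. *Nppa* passed the filter of a mean above 5 normalized counts only through WT PCs, so its difference is not counted as a result. The median over the 8, *Nppa* included, was 1.05, against 0.00 over all genes tested. In bulk libraries such as these, fewer cells that carry a transcript and less of it per cell cannot be told apart.

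The WT difference depended on single libraries. Without WT PC 2, *Myl7* was higher by 1.07 ± 0.43, still at an unadjusted p below 0.05 (adjusted p = 0.378 by edgeR), and *Myl4* differed by 0.79 ± 0.44, no longer past it (adjusted p = 0.584). On the same omission *Myh7* (0.99 ± 0.39) crossed the unadjusted threshold (adjusted p = 0.361 by edgeR). So did *Nppa* (2.90 ± 0.84, adjusted p = 0.170 by edgeR), but only WT PCs brought it into the test, so this call is not counted as a result. Without WT VM 1, the values were 2.64 ± 0.72 for *Myl7* and 2.54 ± 0.67 for *Myl4*, while both missed the unadjusted threshold without WT VM 2 (1.54 ± 0.69 and 1.31 ± 0.74) or without WT VM 3 (1.76 ± 0.81 and 1.34 ± 0.77). *Sln* crossed it without WT PC 3 (1.93 ± 0.66) or WT VM 1 (2.03 ± 0.85). Leaving out both WT libraries numbered 1 gave 2.84 ± 0.79 for *Myl7* and 2.79 ± 0.70 for *Myl4*. The direction held for *Myl4*, *Myl7* and *Sln* whichever library was left out, but not for *Nppb*, *Myh7*, *Acta1* or *Bmp10*. It also held for *Nppa*, which only WT PCs brought into the test. With no filter on low counts, which tests 21916 genes, *Myl7* and *Myl4* passed the adjustment by edgeR (adjusted p = 2.9e-05 and 0.0016), and the count of all genes that passed rose from 13 to 297. DESeq2 gave 3 members at an unadjusted p below 0.05 (*Myl7*, *Myl4* and *Sln*) and 0 after adjustment.

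In KO, *Myl4* and *Myl7* were again higher in PCs. *Myl4* was higher by 1.75 ± 0.52 on the log2 scale (SE, adjusted p = 0.159 by edgeR) and *Myl7* by 1.57 ± 0.69 (adjusted p = 0.472), both at an unadjusted p below 0.05. That is 2 of the 6 members tested, where 9.7% of 10779 genes tested were called by this rule, 7.11% in this direction and 2.6% in the other, and 0.872% passed the adjustment, none of them a member. *Sln* differed by 0.11 ± 0.75, *Myh7* by 0.01 ± 0.30, *Acta1* by 0.16 ± 0.31 and *Nppb* by -0.25 ± 0.21, none past the threshold. *Nppa*, *Bmp10* and *Tnni1* were too low to be tested. The median over the 6 was 0.13, against 0.01 over all genes.

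The KO difference of *Myl7* rested on KO PC 3, the library with the high *Cntn2*, while that of *Myl4* was reduced without this library. Without it, *Myl7* differed by 0.31 ± 0.66 (adjusted p = 0.942 by edgeR), *Myl4* by 1.08 ± 0.51 (adjusted p = 0.536) and *Sln* by -1.28 ± 0.87 (adjusted p = 0.713), none past the unadjusted threshold. Without KO VM 1, *Myl7* was higher by 3.20 ± 0.74 and *Myl4* by 2.61 ± 0.56, and *Myh7* (0.54 ± 0.24) and *Nppb* (-0.45 ± 0.20) crossed the unadjusted threshold. *Myl7* also missed the unadjusted threshold without KO VM 2 (1.21 ± 0.78) or KO VM 3 (1.06 ± 0.68). DESeq2 called 0 members in KO at an unadjusted p below 0.05, and with no filter *Myl4* and *Myl7* passed the adjustment by edgeR (adjusted p = 5.1e-07 and 4.9e-06). By edgeR, *Myl4* kept an unadjusted p below 0.05 in 5 of 6 omissions and *Myl7* in 3 of 6.

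**Figure D3:**
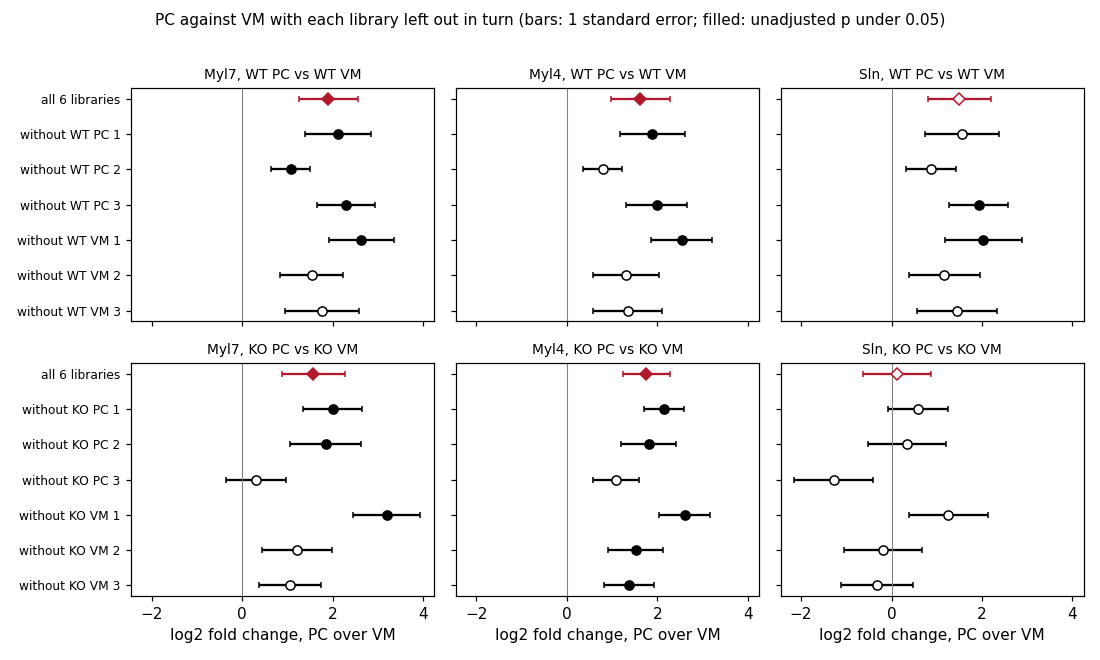
Log2 fold change of *Myl7*, *Myl4* and *Sln*, PC over VM, with all 6 libraries (red diamonds) and with each library left out in turn (circles), in WT (top) and KO (bottom); bars are 1 standard error and filled symbols have an unadjusted p below 0.05. In WT the estimates stay above 0, falling to 0.79 for *Myl4* without WT PC 2; in KO *Sln* runs from -1.28 to 1.26.

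Whether loss of *Ncam-1* changes these genes was tested within each cell type. In PCs, none of 7 members had an unadjusted p below 0.05 by edgeR or DESeq2, where 3.22% of 11754 genes were called by this rule in edgeR, 2.7% as lower and 0.519% as higher. The eighth, *Bmp10*, crossed it by edgeR (adjusted p = 0.993), but it entered the test only through the counts of WT PC 1, so this call is not counted as a result. All 3 KO PC libraries were at 0, its exact permutation p was 0.4, and the mean was at least 5.61-fold lower in KO, with each KO library set to a floor of 3 counts. Without WT PC 1 both groups were at the floor and the gene was not tested, and without KO PC 3 it missed the unadjusted threshold. The log2 differences of the other 7 were all below 0 and none passed the threshold, from -0.10 ± 0.54 for *Nppb* to -1.91 ± 1.16 for *Nppa*, with -0.91 ± 0.73 for *Myl7*, -0.71 ± 0.64 for *Myl4*, -0.93 ± 0.91 for *Sln*, -0.69 ± 0.55 for *Myh7* and -0.64 ± 0.41 for *Acta1*. *Nppa* entered this test only through WT PCs, so its difference is not counted as a result. The median over the 8, *Nppa* included, was -0.81, also with *Bmp10* at its bound, against 0.00 over all genes. No gene of the 11754 passed the adjustment by edgeR (0.0%), while 7 did by DESeq2, none of them a member.

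The spread between libraries set what could be seen in PCs. Summed normalized counts of Purkinje markers, *Cntn2* among them, were 236, 169 and 1043 in KO PCs and 631, 1547 and 1693 in WT PCs. Those of endothelial markers were 2348, 1119 and 706 in KO PCs and 1020, 1650 and 984 in WT PCs. The part of the cell content of the sorts in the genotype differences was not tested. Without WT PC 2, *Myl4* turned to 0.16 ± 0.45 and *Sln* was at -0.26 ± 0.76. Without KO PC 3, *Myl7* was at -2.22 ± 0.73 and crossed the unadjusted threshold (adjusted p = 0.9998 by edgeR), and without WT PC 2 the difference was -0.04 ± 0.56. Without WT PC 3, *Myh7* turned from -0.69 to 0.34, and without WT PC 2 it was -1.08 ± 0.37, past the unadjusted threshold, as was *Nppa* at -2.41 ± 0.80 (adjusted p = 0.9999 for both by edgeR). The *Nppa* call is not counted as a result, since only WT PCs brought the gene into the test. With no filter on low counts *Bmp10* passed the adjustment (adjusted p = 0.0027 by edgeR), and DESeq2 gave no p for it.

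In VMs the result had the same form. None of 6 members had an unadjusted p below 0.05 by edgeR or DESeq2, where 5.12% of 10737 genes were called by this rule in edgeR, 3.25% as lower and 1.87% as higher, and 0.0373% passed the adjustment. The seventh, *Bmp10*, crossed it by edgeR (adjusted p = 0.931), but entered the test only through the counts of WT VM 1, so this call too is not counted as a result. KO VMs were at the floor, the exact permutation p was 1.0, and the mean was at least 4.30-fold lower in KO, with each KO library set to 3 counts, a difference that came from WT VM 1. Without that library *Bmp10* was not tested. *Bmp10* missed the unadjusted threshold by DESeq2 and passed the adjustment with no filter (adjusted p = 6.9e-04 by edgeR). *Acta1* differed by -0.60 ± 0.29 (adjusted p = 0.931 by edgeR), *Myl4* by -0.79 ± 0.51, *Myl7* by -0.53 ± 0.60, *Sln* by 0.52 ± 0.61, *Nppb* by -0.11 ± 0.25 and *Myh7* by -0.08 ± 0.30, none past the threshold. Without KO VM 1, *Acta1* was at -0.99 ± 0.29, *Myl4* at -1.66 ± 0.53, *Myl7* at -2.17 ± 0.55 and *Myh7* at -0.64 ± 0.25, all past the unadjusted threshold with *Bmp10*. Other omissions went the other way for some genes: without WT VM 1, *Myl4* turned to 0.09 ± 0.47 and *Myl7* to 0.17 ± 0.64, and *Myh7* turned to 0.31 ± 0.30 without WT VM 3, to 0.16 ± 0.33 without KO VM 2 and to 0.14 ± 0.32 without KO VM 3. Without WT VM 2, *Acta1* (-0.82 ± 0.28) and *Myl4* (-1.09 ± 0.51) were past it. None of these passed the adjustment by edgeR.

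The genotype effects in PCs and VMs did not differ detectably in a fit of all 12 libraries. No member had an unadjusted p below 0.05 by edgeR, where 2.9% of 11323 genes did, 1.03% with a positive and 1.86% with a negative difference, and 0 genes passed the adjustment by edgeR and 0 by DESeq2. The largest differences, PC effect minus VM effect, were -2.67 ± 4.35 for *Bmp10*, -2.28 ± 1.94 for *Nppa* and -1.44 ± 1.22 for *Sln*. Without KO PC 3, *Sln* was at -2.86 ± 1.29 and crossed the unadjusted threshold (adjusted p = 0.9998 by edgeR). In none of the 4 comparisons of groups did a tested member's 3 libraries lie wholly above or below the other 3, while 13.9% (PC against VM in WT), 15.6% (the same in KO), 9.52% (KO against WT in PCs) and 9.63% (the same in VMs) of the genes tested did so.

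**Figure D4:**
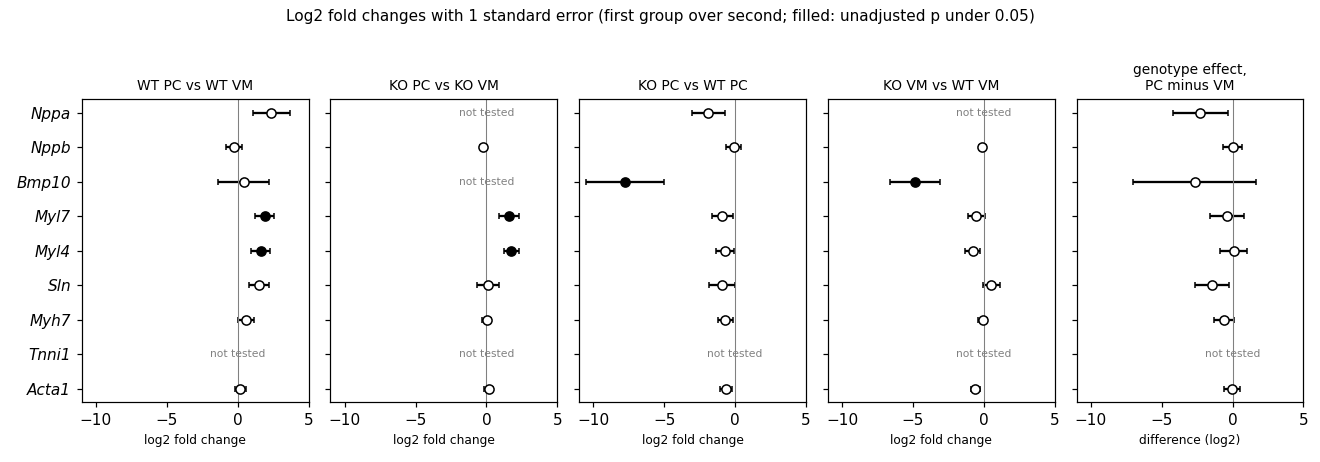
Log2 fold change of each gene (first group over second) with 1 standard error in the 4 comparisons, and the difference of the genotype effects at the right; filled circles have an unadjusted p below 0.05, and the fitted *Bmp10* values against KO libraries at or near 0 counts are no bounds. *Myl7* (1.90 and 1.57) and *Myl4* (1.62 and 1.75) are above 0 between PCs and VMs of both genotypes, and the filled *Bmp10* values rest on 1 WT library each.

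Beside the 9 genes, 18 other genes of atrial myocytes were followed, several of which PCs also express. In WT, 5 of 15 tested were higher in PCs at an unadjusted p below 0.05 and none lower, against 5.14% and 1.22% of all genes tested, and 1 passed the adjustment, *Stard10*, an atrial-enriched lipid transfer protein gene (log2 difference 3.43 ± 0.44, adjusted p = 0.0316 by edgeR). Without WT PC 2, 5 of 14 passed the adjustment, namely *Stard10*, *Fgf12*, *Gja5*, *Sbk2* and *Peg3*, while 108 genes passed in all. *Gja5* averaged 4.90 and *Fgf12* 3.55 in WT VMs, so both entered the WT tests of PCs against VMs only through PCs. Any calls of these genes in the WT tests, with or without WT PC 2, are not counted as results. In KO, 4 of 14 were higher and 1 lower at an unadjusted p below 0.05, against 7.11% and 2.6% of all genes tested, led by *Gja5*, the connexin 40 gene of atria and PCs (3.77 ± 0.88, adjusted p = 0.0617 by edgeR), *Fgf12*, a sodium channel regulator (3.77 ± 0.92, adjusted p = 0.0775) and *Stard10* (1.79 ± 0.54, adjusted p = 0.161). Between genotypes, *Stard10* (-1.81 ± 0.57, adjusted p = 0.993 by edgeR) and *Fgf12* (-1.51 ± 0.66, adjusted p = 0.993) were lower in KO PCs at an unadjusted p below 0.05 and *Kcnj3*, a subunit of the acetylcholine-activated potassium channel, was higher in KO VMs (0.57 ± 0.16, adjusted p = 0.664). These were 2 of 16 tested in PCs, where the rule called 2.7% of all genes as lower, and 1 of 12 in VMs, where it called 1.87% as higher. None of these KO or genotype calls passed the adjustment. *Gja5* averaged 2.91 and *Fgf12* 1.37 in KO VMs, so both entered the KO test of PCs against VMs only through PCs. Their calls in that test are not counted as results.

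Of 6 ventricular genes, *Hey2*, a transcription factor of compact ventricular muscle, and *Fhl2*, a sarcomeric LIM protein gene, were lower in WT PCs at an unadjusted p below 0.05 (-1.84 ± 0.79 and -0.53 ± 0.20, adjusted p = 0.779 and adjusted p = 0.741 by edgeR). In KO, *Fhl2* was also lower in PCs by this rule (-0.32 ± 0.14, adjusted p = 0.454 by edgeR). The rule called 1.22% of all genes tested as lower in PCs in WT and 2.6% in KO. None passed the adjustment, and the median of the 6 was 0.10 in WT and -0.13 in KO.

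Of 22 other fetal or load-responsive genes, 5 of 20 tested passed as higher in the PCs of WT hearts at an unadjusted p below 0.05, none as lower, against 5.14% and 1.22% of all genes tested. The lowest p-values were those of *Igf2*, the fetal growth factor (1.55 ± 0.45, adjusted p = 0.6001 by edgeR), *Uchl1*, a neuronal ubiquitin hydrolase gene (2.19 ± 0.64, adjusted p = 0.6001) and *Tnnt1*, slow skeletal troponin T (1.56 ± 0.56, adjusted p = 0.692). *Tnnt1* was 37.5, 137 and 42.2 in WT PCs, highest in WT PC 2, and without that library its difference was 0.77 ± 0.35 (adjusted p = 0.461 by edgeR) and that of *Uchl1* 1.503 ± 0.50 (adjusted p = 0.248). In KO, *H19* (3.08 ± 0.83, adjusted p = 0.117 by edgeR) and *Igf2* (1.94 ± 0.61, adjusted p = 0.198), neighbouring imprinted genes, were higher in PCs and *Xirp2*, an actin-binding protein gene (-0.40 ± 0.13, adjusted p = 0.239), and *Ankrd1* lower, all at an unadjusted p below 0.05. These were 2 higher and 2 lower of 18 tested, against 7.11% and 2.6% of all genes tested. *H19* averaged 3.30 in KO VMs, so it entered the test only through PCs and its call is not counted as a result. *Ankrd1*, a stretch-responsive gene, was lower by the same rule in PCs of KO hearts than of WT hearts (-0.67 ± 0.23, adjusted p = 0.993 by edgeR), as was *Uchl1* (-2.36 ± 0.86, adjusted p = 0.993, and -1.66 ± 0.76 without WT PC 2). *Ccn2*, a matrix-associated growth factor gene, and *Hk1*, hexokinase 1, were higher in VMs of KO hearts (0.52 ± 0.19 and 0.53 ± 0.21, adjusted p = 0.931 for both by edgeR). The genotype calls were 2 of 20 tested in PCs, where the rule called 2.7% of all genes as lower. In VMs they were 2 of 17, where it called 1.87% as higher. None passed the adjustment.

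The pathway of the natriuretic peptides and *Bmp10* was read over 24 genes for receptors, processing enzymes, signal transducers and cardiac transcription factors. *Corin*, which cleaves the natriuretic peptide precursors, lay between 1216 and 1790 normalized counts in every library, and the BMP receptor *Bmpr2* between 1475 and 2068. In WT, 2 of 21 tested were higher in PCs and 2 lower at an unadjusted p below 0.05, against 5.14% and 1.22% of all genes tested, with the lowest p-values for *Mef2c*, a myocyte transcription factor gene (-0.89 ± 0.28, adjusted p = 0.604 by edgeR), *Mme*, the neprilysin gene whose enzyme degrades the peptides (-1.72 ± 0.59, adjusted p = 0.670), and *Id2*, a BMP target (2.19 ± 0.84, adjusted p = 0.733). Without WT PC 2, 5 were higher and *Id2*, at 1.12 ± 0.65, was not among them (adjusted p = 0.602 by edgeR). In KO, 4 of 21 were higher in PCs by the same rule, which called 7.11% of all genes as higher, and *Eng*, the endoglin gene, an endothelial co-receptor for BMP ligands, passed the adjustment (2.55 ± 0.43, adjusted p = 0.0122 by edgeR). Endothelial markers moved with it: the 6 summed to between 706 and 2348 in KO PCs and 91.9 and 428 in KO VMs, and their part in the *Eng* difference was not tested. No gene of this list had an unadjusted p below 0.05 between genotypes in PCs or VMs, but without WT PC 2 *Bmpr1a*, a type I BMP receptor gene, was lower in KO PCs by that rule (-0.46 ± 0.18, adjusted p = 0.9999 by edgeR).

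The 5 genes whose log2 levels followed the mean of *Nppa*, *Myl4*, *Myl7* and *Sln* most closely over the 12 libraries, among 11315 genes, were *Pde4b*, a cAMP phosphodiesterase gene (Pearson r = 0.895), *Rarg*, a retinoic acid receptor gene (0.869), *Fbln1*, a matrix protein gene (0.866), *Pop1*, an RNA-processing gene (0.856), and *Hamp*, the hepcidin gene (0.855). Spearman's rho lay between 0.832 and 0.890, and r between 0.788 and 0.927 without KO VM 2 and KO VM 3, the 2 libraries farthest from the median. These are descriptions over libraries that share preparation and depth, chosen as the closest of many.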

How the data were processed

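For each of 12 libraries of sorted cells the authors deposited counts, the number of read pairs per gene, without normalization. They were made from amplified RNA with STAR v2.5.0c on mm10 and HTSeq v0.6.0. Symbols, positions and exon lengths came from GENCODE M21 (GRCm38), which lacks 382 of 48526 identifiers; promoters came from RefSeq, with entries for 8 of the 9 genes. The genes and lists were chosen with earlier results of these data known.

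Each comparison of groups used its 6 libraries, TMM scaling and edgeR 4.0.16 (R 4.3.3) glmQLFTest on genes whose normalized counts averaged over 5, and p-values were adjusted by Benjamini-Hochberg across the whole table; the standard error is the log2 fold change over the square root of F. The interaction used all 12 libraries. Levels used TMM over 12 libraries; log2 levels added 2 normalized counts, and partner ratios 1 count before division by exon length. Alternatives were DESeq2 1.42.0, its size factors, filterByExpr, no filter, no mitochondrial genes, 1 fit of 12 libraries, a replicate block and omission of each library; joint omission of same-numbered WT libraries and levels without WT PC 2 were added after seeing the data. Counts limit precision, and a value of 3 counts was the floor. The fits were tested on simulated counts. Named genes were the 9 members, their 6 partners, *Ncam1*, *Cntn2*, from each list those past the adjustment or else at most 3 with the lowest p below 0.05, and the 5 closest genes; *Gm13054*, *Mhrt*, the genes called without WT PC 2 (*Bmpr1a* among them), and level examples from the lists were named after their values were seen. The HTSeq classes of pairs on no gene (40.0% to 73.6% of pairs) stayed out of all tests. No columns of other samples were present.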

Additional observations from a re-analysis of the deposited data

How the results depend on the processing

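The mean levels moved by less than 1 SD under other size factors or CPM. Omission of 1 of 3 libraries cannot move a mean by 1 SD, so it is no check of the levels. Without the filter on low counts, the numbers of members past the adjusted threshold were 2 for PC against VM in WT and 2 in KO, and 1 for KO against WT in PCs and 1 in VMs, in place of 0 each, and those at an unadjusted p below 0.05 were 6 in the first, 4 in KO PC against WT PC, 3 in KO VM against WT VM and 1 in the interaction. Members at an unadjusted p below 0.05 numbered 0 by DESeq2 in KO PC against KO VM, KO PC against WT PC and KO VM against WT VM, 0 by filterByExpr in the latter 2, and 1 (KO PC against KO VM) and 0 (KO VM against WT VM) in 1 fit of all 12 libraries. The cause was not tested, except that filterByExpr tests fewer genes.

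With 1 library left out, no member passed the adjusted threshold in any comparison (range 0 to 0), and the members at an unadjusted p below 0.05 numbered 0 to 4 in WT PC against WT VM and in KO PC against KO VM, 0 to 3 in KO PC against WT PC, 0 to 5 in KO VM against WT VM and 0 to 1 in the interaction. Calls of *Bmp10* and *Nppa* that are not counted as results are among these numbers. Estimates that changed sign on such omissions ranged as follows. In WT PC against WT VM, *Nppb* ran from -1.05 to 0.16, *Myh7* from -0.43 to 0.99, *Acta1* from -0.30 to 0.48 and *Bmp10* from -4.95 to 7.92. In KO PC against KO VM, *Nppb* ran from -0.45 to 0.045, *Sln* from -1.28 to 1.26, *Myh7* from -0.22 to 0.54 and *Acta1* from -0.12 to 0.53. In KO PC against WT PC, *Nppb* ran from -0.54 to 0.67, *Myl4* from -1.43 to 0.16 and *Myh7* from -1.08 to 0.34. In KO VM against WT VM, *Nppb* ran from -0.39 to 0.26, *Myl4* from -1.66 to 0.092, *Myl7* from -2.17 to 0.17, *Sln* from -0.65 to 1.01 and *Myh7* from -0.64 to 0.31. In the interaction, *Nppa* ran from -3.65 to 2.60, *Nppb* from -0.43 to 0.76, *Myl4* from -0.84 to 0.96, *Myl7* from -1.67 to 1.27, *Myh7* from -0.997 to 0.40 and *Acta1* from -0.34 to 0.44.

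Other changes of sign were *Myh7* in KO PC against KO VM without mitochondrial genes (-0.019), and in the interaction *Nppb* without mitochondrial genes (-0.00098), *Myl4* by DESeq2 (-0.063), and, with both WT libraries of 1 number left out, *Nppb* (-0.26, number 2), *Myl7* (0.86, number 2), *Acta1* (0.21, number 1, and 0.076, number 2) and *Myl4* (-1.09, number 1). *Acta1* in WT PC against WT VM was -0.075 without both WT libraries numbered 1.

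Whether libraries of the same number share a heart is not given in the sources used here, and they were not treated as paired since not every correlation passed 0.1. Over 8100 genes the correlation of deviations between PC and VM libraries of the same number was 0.207, 0.0813 and 0.150 in WT and -0.00956, 0.121 and 0.0185 in KO, and in WT every PC library correlated best with the VM library of its own number. Titles number the libraries 1 to 3, but the source names number the WT libraries of both cell types 1, 3 and 4, so a number shared across genotypes may mean nothing. With the replicate block by titles, *Nppb* in KO PC against WT PC turned to 0.27 and *Acta1* in the interaction to 0.076, and the members at an unadjusted p below 0.05 in KO VM against WT VM numbered 3. The genes past the adjusted threshold under the block were 4 and 121 for PC against VM in WT and KO, and 1 and 7 for KO against WT in PCs and VMs, against 13, 94, 0 and 4 without it.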

Other observations

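Markers of several other cell types had larger sums in the PC sorts than in the VM sorts. Those of red cells overlapped between the sorts, as did nodal and epicardial markers in KO. The sums were not tested. The 7 fibroblast markers summed to between 706 and 1672 normalized counts in WT PCs, from 657 to 967 in KO PCs, 217 and 384 in WT VMs and 65.1 and 317 in KO VMs, and the highest WT PC sum was 1050.1 without WT PC 2. The 5 leukocyte markers summed to between 225 and 595 in WT PCs and 41.4 and 130 in WT VMs, and at most 235 in WT PCs without WT PC 2. In KO they ran from 214 to 231 in PCs and from 9.90 to 71.9 in VMs. The 5 smooth muscle and pericyte markers ran from 1082 to 1363 in WT PCs and 458 to 952 in WT VMs. Their KO sums ran from 965 to 2352 in PCs and 246 to 672 in VMs. The 5 red cell markers summed to 552, 3166 and 9.25 in WT PCs, to 141, 77.2 and 8.14 in WT VMs and to at most 14.7 in any KO library, so the third WT library of each cell type lay within the KO range. The 7 markers of the sinoatrial and atrioventricular nodes summed to between 142 and 211 in WT PCs and 85.3 and 103 in WT VMs, with 1 of the 7 at the floor in all 12 libraries. In KO their sums overlapped, from 98.4 to 136 in PCs and from 83.5 to 115 in VMs. Of 4 epicardial markers, the sum did not exceed 77.0 in any library. The part of these cells in the levels of the fetal and atrial genes was not tested.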
